A study of Mus musculus with 6 samples.

Results

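Genes for the carriers that move glucose and lactate across membranes, and for the escort of the lactate carriers, were compared in mouse ventricle at 2 ages, postnatal day 1 (P1) and day 14 after birth (P14). They were taken by symbol from the deposited count table: the glucose transporter genes Slc2a1, Slc2a3, Slc2a4, Slc2a8 and Slc2a12, the monocarboxylate transporter genes Slc16a1 and Slc16a3, and Bsg. All 8 were found among the 14495 genes of the table, and all 8 passed the filter on low counts that left 14301 tested genes. The samples were male C57BL/6 mice with no genetic change or treatment named in the labels. Each age had 3 libraries of poly(A)-selected RNA, and each library pooled 3 hearts, so 9 hearts stood behind each age and the error bars describe the spread between pools. The tissue protocol describes ventricles with the septum and without atria, whereas the tissue field names the left ventricle.

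Glucose enters a cardiomyocyte by facilitated diffusion through GLUT proteins of the SLC2 family. GLUT1 (Slc2a1) sits at the cell surface and serves basal uptake, while GLUT4 (Slc2a4) waits in vesicles that insulin and contraction send to the surface. Lactate, pyruvate and ketone bodies cross with a proton through MCT proteins of the SLC16 family. MCT1 (Slc16a1) has a high affinity for lactate, MCT4 (Slc16a3) is known from cells with a high glycolytic output, and both need basigin (Bsg) to reach the membrane. Around birth the mouse heart turns from mainly carbohydrate fuel to mainly fatty acids.

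At P14 the transcripts of the insulin-responsive GLUT4, of basigin, of the intracellular transporter GLUT8 (Slc2a8) and of MCT1 were higher, and those of GLUT1, GLUT3 (Slc2a3) and MCT4 were lower. The verbs rose and fell are kept for genes that passed edgeR's quasi-likelihood test of P14 against P1, with a Benjamini-Hochberg adjusted p under 0.05. Of the 8 genes 4 rose, 3 fell and 1, Slc2a12, did not pass. Among all tested genes 21.8% rose and 22% fell, together 43.8%. The number that rose was 2 without P1 replicate 3 (18.4% of all genes rose and 18.2% fell), without P14 replicate 1 (19.4% and 19.6%) and without P14 replicate 3 (17.5% and 16.8%), and 3 fell in each case. For the other libraries left out, the shares of all genes that rose and fell were 20.8% and 20% without P1 replicate 1, 23.9% and 23.3% without P1 replicate 2, and 16.5% and 15.7% without P14 replicate 2. With libraries scaled by their totals alone 2 rose and 3 fell, while 11.3% of all genes rose and 39.1% fell. With the replicate number as a block 4 rose and 3 fell, against 24.9% and 24% of all genes. After correction for GC content and length 5 rose and 3 fell (23.7% and 27.5% of all genes), and the same counts were found with the correction and the block (25% and 28.6%). Levels are given as CPM, the count of a gene relative to its library's total after scaling by the trimmed mean of M-values (TMM). In these units no P1 library overlapped a P14 library for any of the 8 genes, 5 being higher and 3 lower at P14. The same separation was seen in 54.8% of all tested genes. The median log2 fold change was 0.60 over the 8 genes and −0.01 over all tested genes.

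Library totals lay between 5916557 and 17353933 counts, and P1 replicate 3 was the shallowest. The P1 libraries differed among themselves with the GC content of transcripts: the deviation of a gene from the P1 mean correlated with its GC content, across genes, at −0.64 in P1 replicate 2, 0.50 in P1 replicate 1 and 0.34 in P1 replicate 3. At P14 these values lay between −0.11 and 0.16. Under scaling by library totals alone the median over all genes of the log2 fold change was −0.47, so every direction given here is relative to the TMM scaling. All 10 cardiomyocyte markers examined, including Myh6, Tnnt2 and Ryr2, were measured at both ages.

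Markers of the cell types that the tissue holds also differed between the ages. The summed level of the 10 cardiomyocyte markers was 63717 to 68737 CPM at P1 and 103022 to 121015 CPM at P14. Of the 10, 5 rose, and 2 rose without P1 replicate 3, where 18.4% of all genes rose. Over all tested genes 21.8% rose and 22% fell in the main fit. All 10 proliferation markers fell, from a sum of 435 to 450 CPM to one of 23.4 to 47.6 CPM. Markers of other cells moved as well, and 5 of 10 endothelial markers rose. The other endothelial markers did not pass. Pecam1, Cdh5, Tek and Emcn had log2 fold changes of −0.27, −0.40, −0.17 and −0.42, and Kdr had 0.44. Risen too were 9 of 11 macrophage, 7 of 9 erythroid, 4 of 6 platelet and all 3 tested adipocyte markers. By contrast 5 of 7 granulocyte markers fell, from 48.5 to 62.5 CPM to 9.29 to 12.5 CPM. Mouse erythrocytes carry GLUT1 around birth and GLUT4 later, platelets and neurons carry GLUT3, and adipocytes GLUT4. The erythroid sum was 564 to 1048 CPM at P1 and 3316 to 4079 CPM at P14. Of the 10 adipocyte markers listed only Pnpla2, Cidea and Lipe were tested. Adipoq, Plin1, Cidec, Lep, Cfd, Retn and Ucp1 were absent from the deposited counts. The 3 tested markers summed to 101 to 183 CPM at P1 and 567 to 613 CPM at P14. Platelet markers summed to 13 to 26.1 and 41.1 to 54.6 CPM, and the 4 neuron markers tested, of which 2 rose and 1 fell, to 28.9 to 39.0 and 87.1 to 95.6 CPM. Of the other lists, 2 of 10 fibroblast markers rose and 1 fell, and 1 of 4 skeletal muscle markers rose. The part of these shifts in the carrier results was not tested, and in bulk tissue fewer cells of a type cannot be told apart from less RNA per cell.

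Promoter sequence was taken from RefSeq (GRCm38.p6) as windows from 250 bases before to 50 bases after a gene's start, and 5 of the 8 genes had one: Slc2a1, Slc2a8, Slc2a12, Slc16a1 and Slc16a3. Slc2a3, Slc2a4 and Bsg had none. The RefSeq starts used for Slc2a1 and Slc16a3 lie inside the genes as GENCODE draws them, and the Slc2a1 match below straddles the GENCODE start. The windows were searched on both strands for ACGTG, a form of the core of the hypoxia response element that hypoxia-inducible factors bind. Within CACGTG it is also part of the E-box that Myc and ChREBP bind. Other forms of the hypoxia core were not searched, so the matches are of ACGTG alone. ACGTG was found in 19.6% of all 32851 windows, and at 2 or more positions in 8.21%. Of the genes that fell, Slc2a1 had 1 match and Slc16a3 had 2. Slc16a1, which rose, had 3, of which 2 are both strands of 1 CACGTG. The windows of Slc2a8 and Slc2a12 do not have these letters. A match is a description of the sequence, and no binding was measured. The stretches around the matches, 5′ to 3′ on the plus strand with the match in capitals, are shown because these carriers share the motif while their transcripts moved in opposite directions.
Slc2a1, chr4:119108696-119108725: agtcccgccccggACGTGctccccaggccc
Slc16a3, chr11:120949034-120949063: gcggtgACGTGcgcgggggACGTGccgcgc
Slc16a1, chr3:104638452-104638481: gcggcgccgggtCACGTGgcgggaaggggg
Slc16a1, chr3:104638671-104638700: gtggcgagctgcgACGTGactggtcggtcg

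The windows of the monocarboxylate carriers were rich in CpG. The observed over expected CpG ratio was 1.06 for Slc16a1 and 0.933 for Slc16a3, against a median of 0.384 over all windows, 0.612 for Slc2a8, 0.605 for Slc2a1 and 0.369 for Slc2a12. Their upstream stretches are given with the same capitals to show that composition.
Slc16a3, chr11:120948817-120949052: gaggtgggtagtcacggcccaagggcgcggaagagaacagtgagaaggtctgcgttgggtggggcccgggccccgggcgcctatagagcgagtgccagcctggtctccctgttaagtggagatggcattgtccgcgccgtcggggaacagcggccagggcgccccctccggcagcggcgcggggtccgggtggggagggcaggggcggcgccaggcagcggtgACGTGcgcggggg
Slc16a1, chr3:104638414-104638663: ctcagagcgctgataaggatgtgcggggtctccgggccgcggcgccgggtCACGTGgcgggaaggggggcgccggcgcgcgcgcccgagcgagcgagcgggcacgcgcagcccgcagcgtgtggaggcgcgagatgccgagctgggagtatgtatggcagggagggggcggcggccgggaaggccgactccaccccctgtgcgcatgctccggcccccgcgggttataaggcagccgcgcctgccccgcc
The CCAAT box, searched as CCAAT on both strands, was found at 5 positions in the Slc2a8 window and at 1 in the Slc2a1 window. The Slc2a8 matches at 148 and 145 bases before the start overlap each other on opposite strands. CCAAT was found in 37.4% of all windows, and at 2 or more positions in 11.7%.

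**Figure D1:**
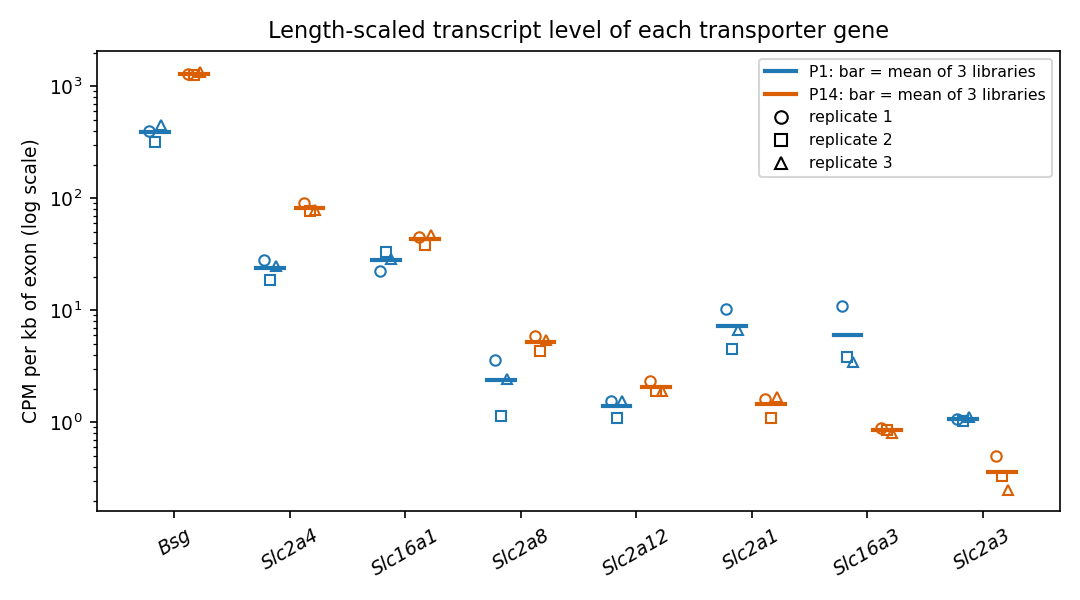
Length-scaled level of each gene, as TMM-scaled CPM per kilobase of exon on a log axis, with genes ordered by their P14 mean; open markers are the 3 libraries of each age and bars their means. Bsg lies highest at both ages, Slc2a4 moves from 23.7 to 82.2, and Slc2a1, Slc16a3 and Slc2a3 are the 3 genes whose P14 markers lie below all their P1 markers.

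Slc2a4 (ENSMUSG00000018566; GRCm38 chromosome 11, 69942539 to 69948188, minus strand) had 96.8, 65.1 and 85.7 CPM in P1 replicates 1 to 3 and 313, 269.9 and 275 CPM in P14 replicates 1 to 3. The lowest P14 pool lay well above the highest P1 pool. Its level rose from 82.5 ± 16.1 to 286 ± 23.2 CPM (SD, n = 3 libraries per age), or 3.47-fold; on the log2 scale this was 1.79 ± 0.21 (SE), with an edgeR adjusted p of 1.25e-05. Of all genes with at least 10 CPM on average, the 3 whose centred log2 CPM over the 6 libraries lay nearest to Slc2a4 were Prickle3, Gm20659 and RP24-308M3.1, with root mean square differences of 0.071, 0.078 and 0.079.

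Slc2a1 (ENSMUSG00000028645; chromosome 4, 119108711 to 119137983, plus strand) moved the other way. Its P1 values were 36.2, 15.7 and 23.4 CPM, and its P14 values were 5.70, 3.85 and 5.92 CPM, resting on 81, 29 and 46 counts. Every P14 library was below every P1 library, although the P1 pools themselves spread widely. Its exons overlap those of Gm12868 on the opposite strand. The gene fell by a log2 difference of −2.28 ± 0.32 (adjusted p = 6.89e-05 in edgeR), a 4.85-fold lower level at P14. The nearest patterns were those of Gm15270, Tead2 and Tcf19, at root mean square differences of 0.187, 0.205 and 0.216.

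Slc2a3 (ENSMUSG00000003153; chromosome 6, 122727809 to 122801640, minus strand) encodes GLUT3, a transporter with a high glucose affinity that is best known from neurons. It had 7.77, 7.46 and 8.08 CPM at P1 and 3.59, 2.39 and 1.80 CPM at P14. The P1 pools were close together, with a coefficient of variation of 3.99%, and the P14 values rest on only 51, 18 and 14 counts. Slc2a3 fell by a log2 difference of −1.53 ± 0.31 (adjusted p = 0.00107 in edgeR).

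Slc2a8 (ENSMUSG00000026791; chromosome 2, 32972990 to 32982083, minus strand) encodes GLUT8, which resides mostly on intracellular membranes. It had 11.5, 3.67 and 7.75 CPM at P1 and 19.0, 13.8 and 17.3 CPM at P14. It rose by a log2 difference of 1.13 ± 0.34 (adjusted p = 0.018 in edgeR), and P1 replicate 2 was the lowest of the 6 libraries. Its longest transcript has a GC content of 60.8%, the highest of the 8 genes; the part of GC content in the result was not tested beyond the correction. After correction for GC content and length that difference was 0.54 (0.0422 in edgeR), and without P1 replicate 2 it was 0.76 (0.015). Slc2a8 did not pass when P1 replicate 3 (0.0509), P14 replicate 1 (0.0732) or P14 replicate 3 (0.0517) was left out, or with totals alone (0.0659).

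Slc2a12 (ENSMUSG00000037490; chromosome 10, 22645011 to 22704285, plus strand) encodes GLUT12, another transporter described in insulin-sensitive tissue. Its values were 6.62, 4.61 and 6.57 CPM at P1 and 9.99, 8.10 and 8.11 CPM at P14. The ages did not overlap, but the log2 difference of 0.58 ± 0.26 did not pass (adjusted p = 0.091 in edgeR), and its 95% interval ran from 0.01 to 1.14. With the correction for GC content and length it passed, at 0.76 (edgeR adjusted p = 0.0148). Part of its exons overlaps Tbpl1 on the opposite strand, and the sources used here do not give whether reads were counted by strand.

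**Figure D2:**
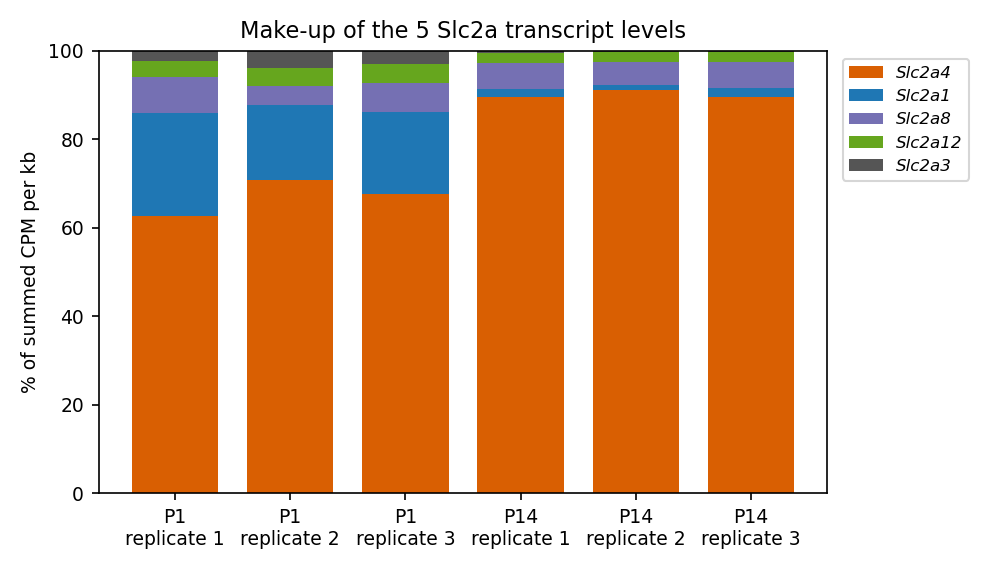
Share of each gene in the summed length-scaled level of the 5 Slc2a genes, in percent, 1 bar per library. Slc2a4 takes 62.7% to 70.7% of the sum in the P1 libraries and 89.6% to 91.0% in the P14 libraries, and Slc2a1 takes 17% to 23.3% at P1 and 1.29% to 1.91% at P14.

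Divided by exon length, the 5 glucose transporter transcripts can be set against each other within a library. Slc2a4 was already the largest of them at P1, with 62.7%, 70.7% and 67.7% of their summed level in the 3 libraries. At P14 it had 89.6%, 91.0% and 89.6%, and the difference of the means was 23.0 percentage points. Slc2a1 had 23.3%, 17% and 18.3% at P1 and 1.62%, 1.29% and 1.91% at P14. For Slc2a8 the share overlapped between the ages, with means of 6.34% and 5.68%, and that of Slc2a3 went from 3.12% to 0.387%. The summed level of the 5 genes was 35.7 ± 8.96 CPM per kilobase at P1 and 91.3 ± 7.93 at P14.

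Within each library the length-scaled level of Slc2a4 was 2.69, 4.17 and 3.69 times that of Slc2a1 at P1 and 55.3, 70.7 and 46.9 times at P14. A ratio within a library does not depend on how libraries are scaled. The mean log2 ratio moved from 1.79 ± 0.33 to 5.83 ± 0.30 (SD), a difference of 4.04. With 3 libraries per age the two-sided exact permutation test cannot give less than p = 0.1, and it gave p = 0.1 here, for the Slc2a4 share and for the other ratios.

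Slc16a1 (ENSMUSG00000032902; chromosome 3, 104638668 to 104658462, plus strand) had 98.4, 148 and 127 CPM at P1 and 199, 168 and 208 CPM at P14. The gap between the ages was narrow: the highest P1 pool, replicate 2, stood under the lowest P14 pool, also replicate 2. The gene rose by a log2 difference of 0.62 ± 0.21 (adjusted p = 0.0246 in edgeR), or 1.54-fold. It did not pass once P1 replicate 1 (0.126), P1 replicate 3 (0.053), P14 replicate 1 (0.0561) or P14 replicate 3 (0.0923) was left out. With the GC and length correction it passed at 0.88 (edgeR adjusted p = 2.48e-04), and without P1 replicate 2 at 0.76 (0.00242). With totals alone the log2 difference was 0.16 (0.613 in edgeR). Under either scaling Slc16a1 lay 0.63 above the median of all genes. Rnf144b, Ccng1 and Pld1 had the nearest patterns, with root mean square differences of 0.047, 0.090 and 0.094.

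Slc16a3 (ENSMUSG00000025161; chromosome 11, 120948480 to 120960868, plus strand) showed the largest change of the 8 genes and the widest spread at P1. Its P1 values were 58.0, 20.4 and 18.2 CPM, and its P14 values were 4.72, 4.51 and 4.25 CPM. P1 replicate 1 was far above the other P1 pools, and the P14 pools lay close together, with coefficients of variation of 69.5% and 5.20%. It fell by a log2 difference of −2.85 ± 0.44 (adjusted p = 5.31e-04 in edgeR), or 7.21-fold. Without P1 replicate 1 that difference was −2.10 (3.84e-06 in edgeR). Slc2a1 was also highest in P1 replicate 1, and without that library its log2 fold change was −1.90 (2.85e-05). The patterns nearest to Slc16a3 were less close than those nearest to Slc2a1, Slc2a4 and Slc16a1: Gm15270, Ppp1r1a and Ctgf lay at 0.370, 0.385 and 0.385. Gm15270 was thus the nearest pattern to both Slc2a1 and Slc16a3.

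Together the carriers shifted toward Slc16a1. By length-scaled level Slc16a1 made up 67.1%, 89.7% and 89.4% of the pair at P1 and 98.1%, 97.8% and 98.3% at P14. The log2 ratio of Slc16a1 to Slc16a3 was 1.03, 3.12 and 3.07 at P1 and 5.66, 5.48 and 5.88 at P14, a difference of means of 3.27. Without P1 replicate 1 that difference was 2.58.

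**Figure D3:**
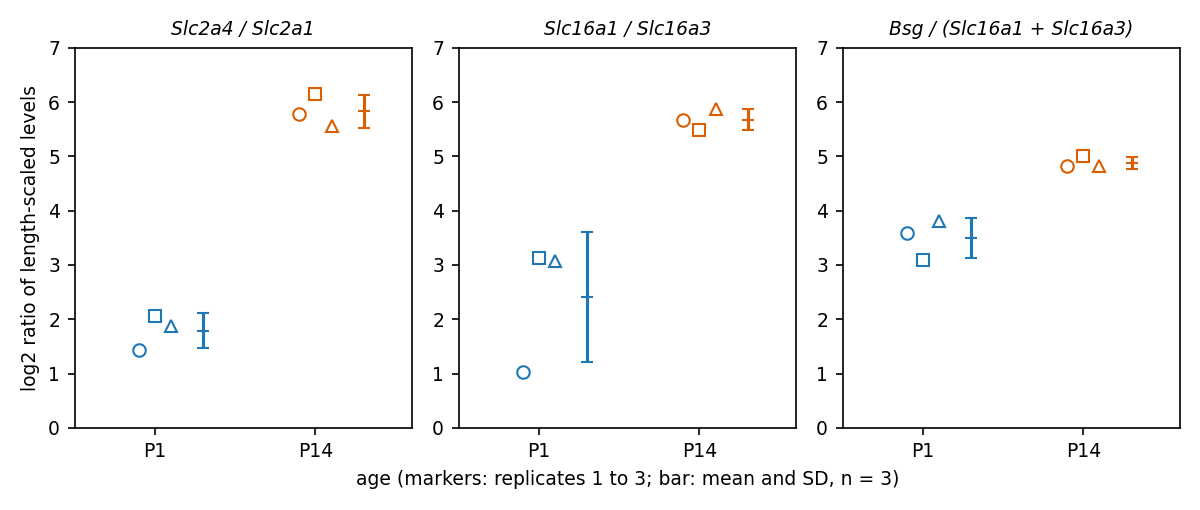
Log2 ratios of length-scaled levels within each library for Slc2a4 over Slc2a1, Slc16a1 over Slc16a3, and Bsg over the sum of Slc16a1 and Slc16a3; markers are replicates and bars the mean and SD of 3 libraries. In all 3 panels the P14 libraries lie above the P1 libraries, and P1 replicate 1 lies apart from the other P1 libraries in the carrier panel (1.03 against 3.12 and 3.07).

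Bsg (ENSMUSG00000023175; chromosome 10, 79704491 to 79711969, plus strand) was the most abundant transcript of the 8. It had 724, 573 and 818 CPM at P1 and 2336, 2265 and 2447 CPM at P14, and the P14 pools varied by only 3.90%. It rose by a log2 difference of 1.74 ± 0.21 (adjusted p = 1.85e-05 in edgeR), or 3.33-fold. After correction for GC content and length the log2 fold change was 1.22 (2.06e-05). Per kilobase Bsg stood at 12, 8.48 and 14 times the summed carriers at P1 and at 28.1, 32.2 and 28.2 times at P14. The mean log2 ratio differed by 1.39 between the ages, and all 3 P14 libraries lay above all 3 P1 libraries. That ratio was not computed with the GC and length correction, which brought the changes of Bsg (1.22) and Slc16a1 (0.88) closer together. The carriers' summed level was 34.2 ± 2.67 CPM per kilobase at P1 and 44.1 ± 4.71 at P14.

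Ordered by length-scaled level, the genes at P1 ran Bsg, Slc16a1, Slc2a4, Slc2a1, Slc16a3, Slc2a8, Slc2a12 and Slc2a3, from 389 to 1.07 CPM per kilobase. At that age Bsg stood apart from Slc16a1 and Slc2a4 stood apart from Slc2a1, while the libraries of every other pair of neighbours overlapped. The P14 order was Bsg, Slc2a4, Slc16a1, Slc2a8, Slc2a12, Slc2a1, Slc16a3 and Slc2a3, from 1295 to 0.358 CPM per kilobase. There no neighbours overlapped. By these means Slc2a1 stood above Slc2a8 and Slc2a12 at P1 and below both at P14, and Slc2a4 moved above Slc16a1. The P1 order was not the same in each library. In P1 replicate 1 Slc2a4 (27.8 CPM per kilobase) was already above Slc16a1 (22.2), and Slc16a3 (10.9) was above Slc2a1 (10.3).

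**Figure D4:**
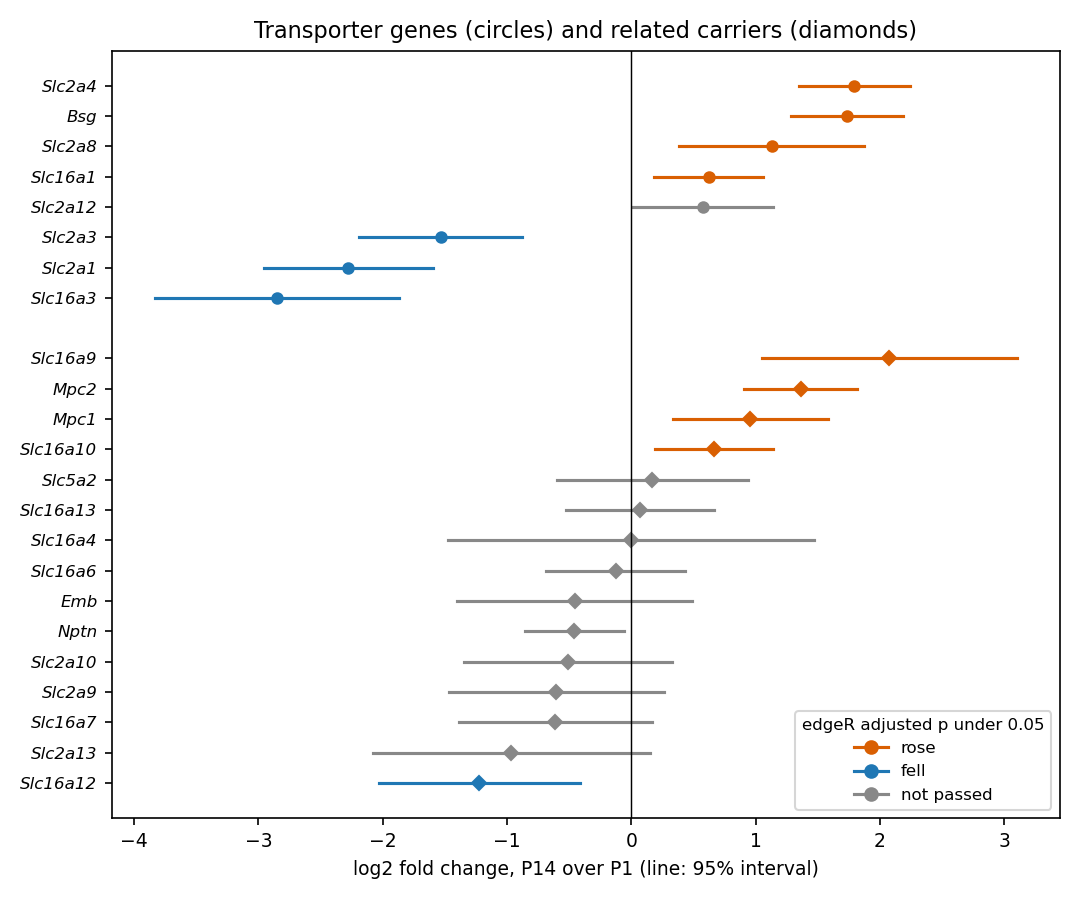
Log2 fold change, P14 over P1, with its 95% interval for the 8 genes (circles, upper block) and for related carriers and escorts (diamonds, lower block), coloured by whether the edgeR adjusted p was under 0.05. Slc2a4 (1.79) and Bsg (1.74) lie highest and Slc16a3 (−2.85) lowest in the upper block; Slc16a9 has the highest value of the lower block but rests on few counts.

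Other sugar transporters were scarce. Of 11 further SLC2 and SLC5 genes listed, 4 were tested (Slc2a9, Slc2a10, Slc2a13 and Slc5a2), none above 2.80 CPM on average at either age, and 0 rose or fell in edgeR. With no p under 0.05 before adjustment and 0 calls in DESeq2 (which called 21.5% of all genes as risen and 21.1% as fallen), their log2 fold changes lay between −0.96 and 0.17. With totals alone Slc2a9, Slc2a10 and Slc2a13 fell.

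Among 12 tested genes of the SLC16 family, the mitochondrial pyruvate carrier and the other basigin-like escorts, 4 rose, 2 fell and 6 did not pass. Their median log2 fold change was −0.07, and over all tested genes 21.8% rose and 22% fell. Slc16a12, a creatine transporter, fell from 3.89 to 1.73 CPM (edgeR adjusted p = 0.0171). The call of Slc16a12 ended without P1 replicate 2 (0.0644) or P14 replicate 1 (0.082). Slc16a10 (TAT1, an aromatic amino acid transporter) rose from 9.19 to 14.5 CPM (0.0256), but did not pass when P1 replicate 1 (0.0749), P14 replicate 2 (0.0597) or P14 replicate 3 (0.0877) was left out, or with totals alone (0.586). Slc16a9 rose from 0.652 to 2.28 CPM. Without P1 replicate 1 (20.8% of all genes rose) or P14 replicate 2 (16.5%) the number that rose was 2. Without P1 replicate 2 (23.3% of all genes fell) or P14 replicate 1 (19.6%) the number that fell was 1.

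Mpc1 and Mpc2 form the carrier that takes pyruvate into mitochondria. Mpc2 rose from 167 ± 32.4 to 428.5 ± 54.6 CPM, a log2 difference of 1.36 ± 0.21, while Mpc1 rose from 3.26 to 6.29 CPM (edgeR adjusted p = 0.0162). Only 67.8% of the 36-base windows of the longest Mpc1 transcript were unique among annotated transcripts, and 226 windows were shared with the pseudogene Mpc1-ps, so the level of Mpc1 is uncertain. Its call ended without P1 replicate 1 (0.0745) or P14 replicate 2 (0.0528), and with totals alone (0.252). The escorts Emb (embigin) and Nptn (neuroplastin), relatives of basigin, did not pass: Emb had 1.28 and 1.02 CPM, and Nptn had 68.1 and 49.6 CPM (edgeR adjusted p = 0.0595). Slc16a4, Slc16a6, Slc16a7 and Slc16a13 did not pass either, with log2 fold changes between −0.61 and 0.07. With totals alone 2 of these 12 genes rose and 4 fell, while 11.3% of all genes rose and 39.1% fell.

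Further lists place the carriers in their pathway. Of 33 tested genes of GLUT4 vesicle traffic 6 rose and 10 fell, and the median change was −0.24 on the log2 scale. Over all tested genes 21.8% rose and 22% fell. Lrp1, a receptor found in GLUT4 vesicles, rose from 29 to 113 CPM, and Ralgapa2, a subunit of a Ral GTPase-activating complex, rose from 24.2 to 50.4 CPM. The log2 difference of Lrp1 was 1.96, and 1.21 after correction for GC content and length. Ralgapa2 did not pass with totals alone (0.06). Tbc1d1, a Rab GTPase-activating protein that holds GLUT4 inside the cell until insulin or AMPK signals arrive, fell from 42.6 ± 5.36 to 17.6 ± 1.78 CPM, and Txndc5 fell from 107 to 50.2 CPM. The Tbc1d1 relative Tbc1d4 (AS160) rose from 20.3 to 37.6 CPM (edgeR adjusted p = 0.0186), but P1 and P14 libraries overlapped, and the gene did not pass when P1 replicate 3 (0.0785), P14 replicate 2 (0.0823) or P14 replicate 3 (0.0791) was left out, or with totals alone (0.265). With totals alone 1 gene of this list rose and 17 fell, while 11.3% of all genes rose and 39.1% fell.

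Of 27 tested genes of insulin and AMPK signalling 2 rose, 7 fell and 18 did not pass, with a median of 0.06. The shares over all tested genes were 21.8% risen and 22% fallen. Prkag2, a regulatory subunit of AMPK, fell from 130.5 to 28.7 CPM, Grb10, an adaptor that dampens insulin and IGF signalling, fell from 474 to 121 CPM, and the receptor gene Igf1r fell from 32.4 to 10.9 CPM. Akt1 fell with a log2 fold change of −1.47 ± 0.27, and with the replicate block and the GC and length correction it was −2.06. Akt2 (49.8 and 59.9 CPM, edgeR adjusted p = 0.312) and the insulin receptor gene Insr (65.7 and 76.5 CPM, 0.534) did not pass. Stk11 (LKB1, a kinase that activates AMPK) rose from 48.7 to 111 CPM. The number that rose was 1 without P1 replicate 3 (18.4% of all genes rose), without P14 replicate 3 (17.5%) or with totals alone (11.3%). It was 4 after correction for GC content and length (23.7%). With each library left out 6 to 8 fell, against 15.7% to 23.3% of all genes.

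Of 28 tested regulators of transporter genes or of transporter turnover 13 rose and 8 fell, with a median of 0.30. The shares over all tested genes were 21.8% risen and 22% fallen. Thrb, a thyroid hormone receptor, rose from 0.529 to 12.6 CPM, and Mlxipl (ChREBP), a glucose-responsive transcription factor, rose from 4.21 to 31.5 CPM. The log2 difference of Thrb was 4.37, and 5.23 without P1 replicate 2. Its P1 values rest on only 8, 18 and 1 counts, so the size of its change is uncertain. Myc fell from 14.1 to 1.76 CPM and Ezh2 from 34.3 to 11.9 CPM. Of the hypoxia-inducible factors, known regulators of Slc2a1 and Slc16a3, Hif1a fell from 66.1 ± 19.2 to 24.1 ± 6.49 CPM and Epas1 (HIF-2α) rose from 64.8 ± 2.33 to 325 ± 38.4 CPM. The arrestin-like proteins Txnip, which removes GLUT1 from the surface, and Arrdc4 fell with log2 fold changes of −0.91 ± 0.19 and −0.93 ± 0.21. Without P14 replicate 2 (16.5% of all genes rose) or P14 replicate 3 (17.5%), 7 genes of this list rose. With totals alone (11.3% rose and 39.1% fell over all genes) 8 rose and 13 fell.

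Of 26 tested genes for the phosphorylation of glucose and the fate of lactate and pyruvate 15 rose and 4 fell, with a median of 0.70. The shares over all tested genes were 21.8% risen and 22% fallen. Gpt, an alanine aminotransferase gene, rose from 4.33 to 30.1 CPM. Of the kinase genes whose products switch off pyruvate dehydrogenase, Pdk3 fell from 55.7 to 4.6 CPM and Pdk1 from 192 to 68.8 CPM. Pdk2, which had the highest level of these kinase genes at both ages, rose from 272 to 643 CPM, and Pdk4 rose from 137 to 425 CPM. Hexokinase Hk1 fell from 303 to 154.5 CPM and the insulin-responsive Hk2 rose from 57.9 to 240 CPM. The lactate dehydrogenase genes did not pass: Ldha differed by −0.40 ± 0.22 on the log2 scale (adjusted p = 0.155 in edgeR) and Ldhb by 0.45 ± 0.21 (0.0971). Ldha fell without P1 replicate 2, at −0.59 (0.00691), and with totals alone, at −0.84 (0.00457).

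**Figure D5:**
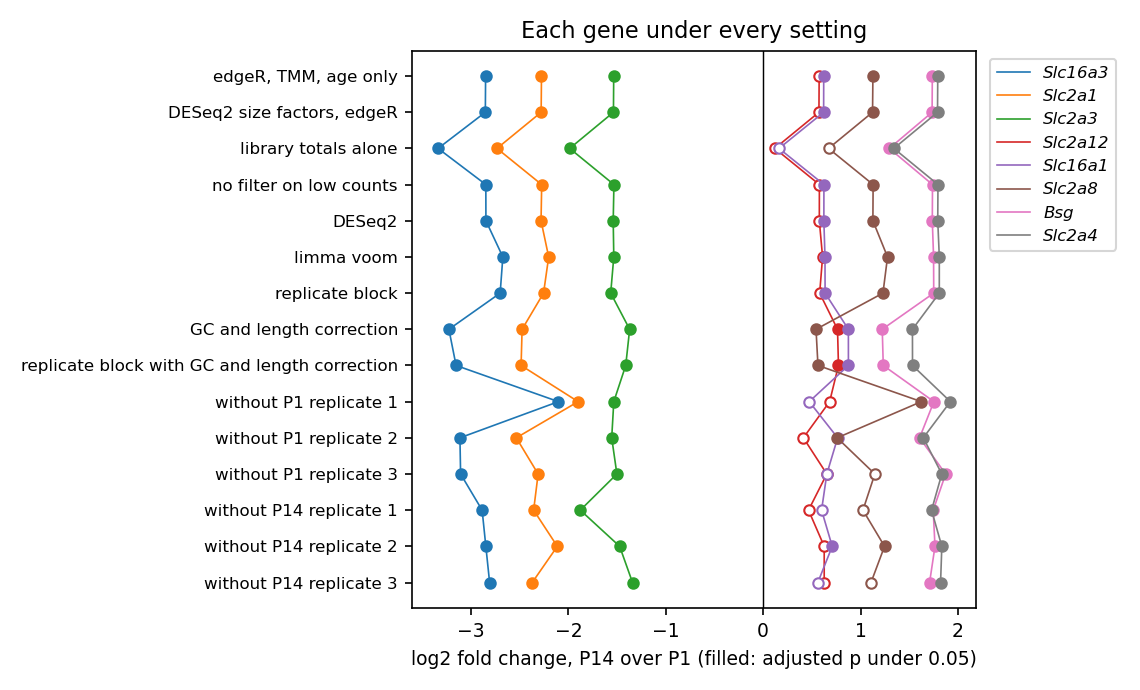
Log2 fold change of each of the 8 genes, P14 over P1, under every processing setting, with filled markers where the adjusted p was under 0.05. No gene changes side of 0, Slc2a8 and Slc16a1 lose their filled markers under some settings (adjusted p of 0.0659 and 0.613 with totals alone), and Slc2a12 gains one with the GC and length correction (0.0148).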

How the data were processed

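Poly(A) RNA from pooled mouse ventricles was sequenced for 36 cycles on a Genome Analyzer IIx, per the labels' protocols. The deposited table holds raw read counts per gene, which the authors made on GRCm38 (mm10); bedtools and edgeR 3.2.4 are named in the submitters' processing notes without a role. The aligner, the annotation and strand use were not given in the sources used here. No gene in the table had fewer than 60 counts summed over its 6 libraries, so rarer transcripts are not analysed here. Nothing says whether pools shared litters, so p-values measure the spread between pools.

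Counts were filtered with filterByExpr (minimum count 10, 194 genes removed), scaled by TMM and tested in edgeR 4.0.16 (R 4.3.3) with the robust quasi-likelihood F-test, age as the only term, and Benjamini-Hochberg adjustment over 14301 genes. The common biological coefficient of variation was 23.0%. CPM used TMM-scaled library sizes, and levels were compared between genes per kilobase of the exon union of GENCODE M21, which held 98.8% of the gene identifiers. Ratios were compared with the two-sided exact permutation test. DESeq2 1.42.0, limma 3.58.1 voom, other scalings, no filter, a GC and length spline, a replicate block and leaving out each library were alternatives. In simulated counts for 14140 genes, 99 genes were changed 2-fold and 100 genes 4-fold. The main test recovered 38.4% of the 2-fold and 89% of the 4-fold changes, with 9 false calls. That share of changed genes is far below the 43.8% called in the data, and no GC bias was simulated. These rates therefore do not give the power of the test in the data.

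Genes were named by rule: the 8 carriers and escort, and all table members of the related transporter lists. In each pathway list the rule took up to 3 called genes with the largest change plus 1 in the other direction. These needed a mean of at least 10 CPM at 1 age only, so a gene could be scarce at the other age. Hif1a, Epas1, Txnip, Arrdc4, Tbc1d4, Akt1, Hk1, Hk2, Ldha, Ldhb and Pdk4 were named after their values were seen. So were Pdk2, Akt2 and Insr, which were not followed under the alternatives. Some genes that the rule names are not reported here. The members and lists were chosen with earlier results of these data known. Replicate numbers are in the labels. The deviations of same-numbered P1 and P14 libraries correlated at 0.295, 0.112 and 0.102, against −0.214 to 0.090 for other pairs. The same-numbered values were thus the highest, but the lowest of them by a small margin, so a pairing by number remains uncertain. The main test and the permutation tests are unpaired, and the replicate block is an alternative. No libraries were duplicates: the closest pair differed by a chi-square of 12.0 per degree of freedom.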

Additional observations from a re-analysis of the deposited data

How the results depend on the processing

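Of 112 values of the 8 genes under the alternatives, 101 kept their direction and call, 9 lost the call, 2 gained it and 0 changed direction. The number of these genes that rose was 4, but 2 with library totals alone and 5 with the GC and length correction, with or without the replicate block, and it ranged from 2 to 4 when each library was left out; the number that fell was 3 throughout. With the replicate block alone, 4 rose and 3 fell, and the block ended or added no call among the 8. Over all tested genes, 49.7% of calls were rises with TMM and 22.5% with totals alone. The ratios were run only with other length scalings and with 1 library left out, and they kept their direction there. Leaving out 1 library gave log2 differences of 3.86 to 4.17 for Slc2a4 over Slc2a1. For Slc16a1 over Slc16a3 they were 2.58 to 3.62, and for Bsg over its carriers 1.18 to 1.54. The GC and length correction was not applied to the ratios. With it the log2 fold change was 1.22 for Bsg and 0.88 for Slc16a1, against 1.74 and 0.62 in the main fit. Among the 43 other named genes followed under the alternatives, 566 of 602 values kept direction and call. Of the rest 14 lost the call, 7 gained it and 15 changed sign, the last all of genes that did not pass. Slc5a2 was −0.30 with totals alone, −0.21 with the GC and length correction, −0.24 with that correction and the replicate block, and −0.067 to 0.37 with 1 library left out. Slc16a4 was 0.053 with voom, 0.25 with the correction, 0.19 with correction and block, and −0.41 to 0.56 with 1 library left out. Slc16a13 was −0.41 with totals alone, −0.33 with the correction, −0.29 with correction and block, and −0.013 to 0.17 with 1 library left out. Slc16a6 ranged from −0.28 to 0.013 with 1 library left out. The cause of these changes was not tested. Depth limits the genes with few counts, such as Slc2a3 (14 counts in P14 replicate 3).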
